A study of Homo sapiens with 52 samples.

Results

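Plasma membrane damage-dependent senescence (PMD-Sen) was compared with the untreated state in WI-38 cells, an established line of normal human embryonic lung fibroblasts, on day 16 after a transient exposure to the detergent sodium dodecyl sulfate (SDS). The genes described were chosen by their level only. Every gene whose normalised read count averaged at least 10 over the 4 libraries of the comparison was kept, which left 14795 of 59408 genes. The lowest mean inside this threshold was 10.0007 and the highest outside it was 9.99747.

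All groups were grown in high-glucose DMEM with 10% fetal bovine serum. For PMD-Sen, young cells were kept for 24 h in medium with 0.0090% SDS, washed, and cultured with regular changes of medium until total RNA was taken 16 days later. The untreated group was young cells at a population doubling level (PDL) of 32 to 46. Other senescent states of the same line served as a reference, namely PMD-Sen on day 8, DNA damage response-induced senescence (DDR-Sen) 16 days after a 24 h exposure to 250 nM doxorubicin, and replicative senescence (RS), reached by passaging to about PDL 52. Each group had 2 libraries, and the same 2 untreated libraries were the control of every comparison, so that time in culture and the SDS exposure cannot be told apart. SDS acts on membranes as a whole, and the cells of a dish need not all have become senescent. In bulk RNA, fewer cells of a kind and less RNA per cell cannot be told apart.

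Cellular senescence is a lasting exit from the cell cycle. In arrested cells the repressive RB-family and DREAM complexes sit on promoters of cell cycle genes, which they recognise through E2F and CHR sequence elements, and the CDK inhibitors CDKN1A (p21) and CDKN2A (p16) keep these complexes active. Senescent fibroblasts are also known for a reduced nuclear lamina, an enlarged lysosomal compartment and the secretion of cytokines, proteases and growth factors, and interferon-stimulated genes are often raised late after induction.

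The deposited comparison gave for each gene the mean level of the 4 libraries, the log2 fold change, its standard error (SE) and a p-value. Levels are given below as normalised read counts, each the mean of the 2 libraries of a group, calculated from the mean and the fold change, and no value or spread of a single library could be given. A gene was said to rise or fall when the p-value, adjusted by the Benjamini-Hochberg method over the 14795 genes, was under 0.05. A gene read in a single group could pass the threshold on level through that group. Counts of rises and falls in any list can be partly set in this way. Counted reads came to about 15.4 M and 18.8 M in the untreated libraries and 29.9 M and 33.3 M on day 16, estimated from genes with 1 read. The median SE was 0.22 on the log2 scale, with 1363 genes above 0.80, so that changes of genes with few reads were measured least well. Genes of the mitochondrial genome took 3.37% of the summed level in untreated cells and 3.80% on day 16.

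The label of the cells was compared with marker genes. All 12 fibroblast markers passed the threshold on level (median log2 fold change 0.28), and among them the collagens COL1A1 (272662 untreated and 189207 on day 16) and COL3A1 (27272 and 39563), the intermediate filament protein VIM (62891 and 53773) and the growth factor receptor PDGFRA (8298 and 13810) were read well in both groups. The 5 that rose were COL3A1, PDGFRA, THY1, DCN and LUM, and the pair that fell COL1A1 and FAP. Of 12 epithelial markers 5 passed the threshold, their list summing to 3126 untreated and 2981 on day 16, with KRT5, KRT14 and ESRP1 at 0. Of 9 endothelial markers 3 passed, with CDH5 and PECAM1 under the threshold and a sum of 2682 and 4646, and of 12 white blood cell markers 1 passed, with a sum of 30.5 and 204 and with CD3E, CD3D, MS4A1, NKG7 and TYROBP at 0. That single marker was CD14, the coreceptor for bacterial lipopolysaccharide, at 21.7 untreated and 192 on day 16. The defining gene of white blood cells, PTPRC (CD45), was under the threshold on level.

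Between untreated and day-16 cells, 3187 of 14795 genes passed the test (21.5%), of which 1459 were higher (9.86%) and 1728 lower (11.7%) on day 16. The median over all genes tested was 0.01 on the log2 scale. A change of at least 1 on the log2 scale, or a doubling, was reached by 560 of the genes that rose and 557 of those that fell, and a change of at least 2 by 177 and 175. Protein-coding genes made up 3019 of the calls, out of 12127 tested, and long noncoding RNAs 58 of 667. The plot of level against fold change shows both directions over the whole range of levels.

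**Figure D1:**
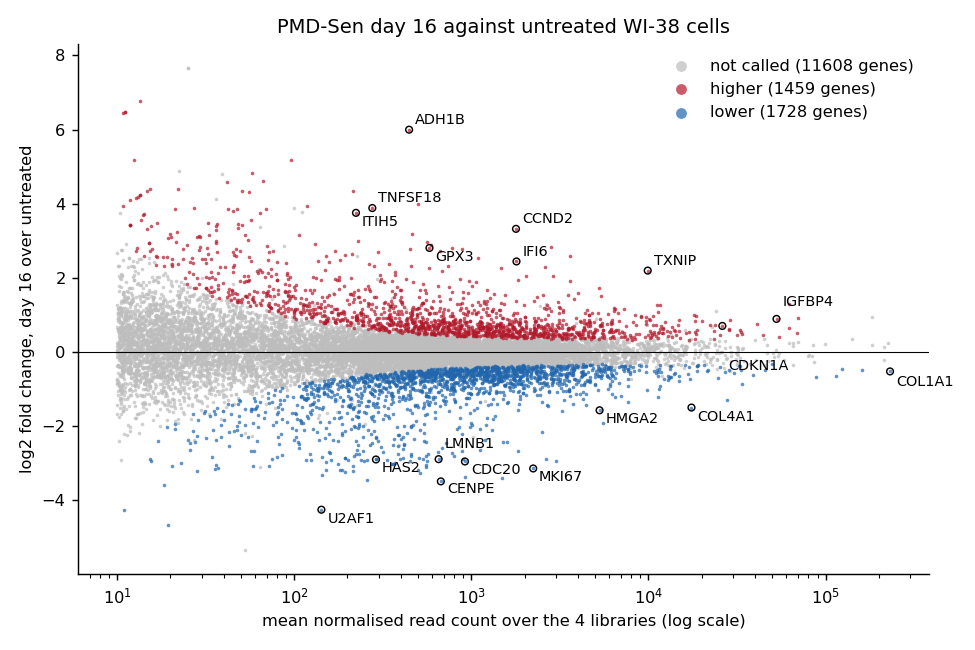
Each point is 1 of the 14795 genes tested, with the mean normalised read count over the 4 libraries on a log axis and the log2 fold change of day 16 over untreated on the vertical axis. Red marks the 1459 genes that were higher, blue the 1728 that were lower and grey the 11608 that did not pass the test. Of highly read genes COL1A1 was at -0.53 and COL4A1 at -1.50, and CCND2, ADH1B and U2AF1 lay far from 0.

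Among genes with a mean level of at least 100 and an SE of at most 0.5, the largest rise was that of TNFSF18, a member of the tumour necrosis factor family (GITR ligand), from 35.1 in untreated cells to 517 on day 16, 14.7-fold. It was followed by ITIH5, an inter-alpha-trypsin inhibitor heavy chain that binds hyaluronan, from 30.9 to 416, and by CCND2, a D-type cyclin, from 325 to 3249 (9.99-fold). TMEM178B rose from 91.2 to 833 and ATP8B4, a phospholipid flippase, from 51.2 to 406. The remaining 7 of the 12 rose between 6.65-fold and 7.76-fold: AKR1C2, an aldo-keto reductase that acts on steroids, MICA, a stress ligand read by natural killer cells, DEPP1, a FOXO target, GPX3, the secreted glutathione peroxidase, FBXO32, a ubiquitin ligase of muscle wasting, CCN4, a matricellular WNT target, and CYTL1, a small secreted protein. An SE over 0.5 kept ADH1B, a class I alcohol dehydrogenase, out of this ranking, although it rose from 13.8 to 877 (log2 fold change 6.00 ± 1.40).

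Of the 12 largest falls, 11 were genes of cell division and DNA synthesis. CENPE, the kinetochore motor, fell from 1236 to 110 (11.3-fold), CENPM from 262 to 26.4 and NUF2, a kinetochore subunit, from 348 to 36.9. POLQ, the polymerase of end joining, NEK2, a centrosome kinase, MCM10, which starts the replication fork, TROAP, PLK4, the kinase of centriole duplication, DLGAP5, CDC45, part of the replicative helicase, and PIMREG fell between 8.09-fold and 9.23-fold. The remaining gene was U2AF1, a splicing factor subunit, at 271 and 14.2. It has a near-identical copy, U2AF1L5, which moved the other way, from 143 to 600, and the sum of both genes was 413 in untreated cells and 614 on day 16. Reads could thus have been assigned to either copy, and the fall of U2AF1 taken alone is uncertain.

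**Figure D2:**
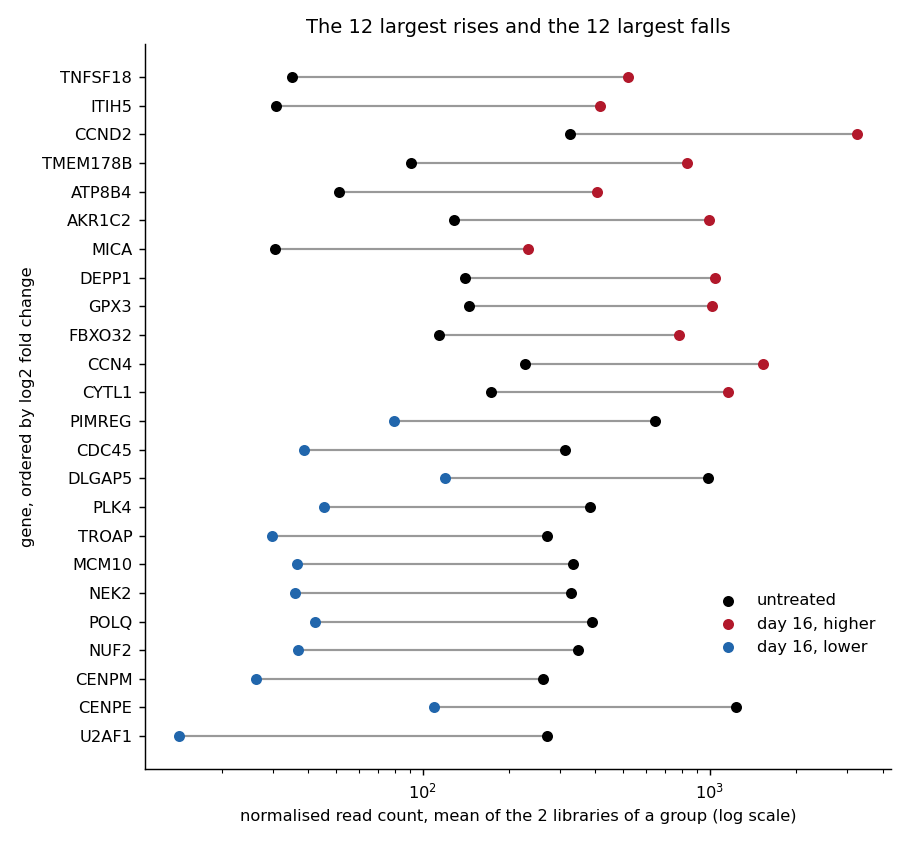
The 12 genes with the largest rise and the 12 with the largest fall, with the normalised read count of untreated cells (black) and of day 16 (red, higher; blue, lower) on a log axis, each point being the mean of 2 libraries. TNFSF18 went from 35.1 to 517 and CENPE from 1236 to 110, and no error bars are drawn because values of single libraries were not used.

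Genes of mitosis fell together. Of 51 listed genes of mitosis and cytokinesis 48 passed the threshold on level, and all 48 fell (median log2 fold change -2.85, range -3.49 to -0.67), against 11.7% of all genes that fell and a median of 0.01. Summed over the list, the level was 59742 in untreated cells and 12192 on day 16. CDC20, the activator of the anaphase-promoting complex, fell from 1631 to 210 (log2 fold change -2.96 ± 0.28), and PLK1, the polo-like kinase that drives mitotic entry, from 1123 to 172 (-2.71 ± 0.26). CENPF, a kinetochore protein, fell from 2727 to 258, but with an SE of 0.68, and ASPM, a spindle pole protein, from 1672 to 161 with an SE of 0.99. AURKB, the kinase of the chromosomal passenger complex, fell from 406 to 59.9, and the checkpoint kinases BUB1 and BUB1B from 891 to 123 and from 660 to 83.3. MKI67, the proliferation antigen, added here after its values were seen, fell from 4016 to 454. The member that changed least was BUB3, a checkpoint protein that also has other roles, at 3103 and 1953.

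Promoters of the listed mitotic genes were searched for letters of known elements. The list was written from general knowledge of a class for which CHR elements are known. The shares below therefore describe the list and not the change on day 16. All 48 tested members fell, so members that fell could not be set against others. In windows from 250 bases before to 50 bases after the annotated start (RefSeq, GRCh38.p14), the letters of the CHR element, TTTGAA or TTCGAA on either strand, stood in 78.0% of the 41 mitotic genes with a window and in 11.2% of 9993 windows of tested protein-coding genes. CCAAT, the letters bound by NF-Y, stood in 70.7% and 36.3%, and both together in 56.1% and 4.72%. Stretches of 3 such promoters, picked after their letters had been seen, are printed 5′ to 3′ with CHR and CCAAT letters in capitals (TTCAAA is TTTGAA read on the other strand): CDC20 at chr1:43358791-43358980, plus strand, PLK1 at chr16:23678699-23678888, plus strand, and CCNB2 at chr15:59104956-59105145, plus strand.
CDC20: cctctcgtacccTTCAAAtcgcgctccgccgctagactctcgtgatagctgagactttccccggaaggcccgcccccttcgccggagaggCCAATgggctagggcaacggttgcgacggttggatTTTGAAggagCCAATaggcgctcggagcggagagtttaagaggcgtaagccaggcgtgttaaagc
PLK1: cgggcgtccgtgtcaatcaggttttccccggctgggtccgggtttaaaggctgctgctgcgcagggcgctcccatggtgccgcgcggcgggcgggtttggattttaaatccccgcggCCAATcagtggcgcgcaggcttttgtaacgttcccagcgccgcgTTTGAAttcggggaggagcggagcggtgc
CCNB2: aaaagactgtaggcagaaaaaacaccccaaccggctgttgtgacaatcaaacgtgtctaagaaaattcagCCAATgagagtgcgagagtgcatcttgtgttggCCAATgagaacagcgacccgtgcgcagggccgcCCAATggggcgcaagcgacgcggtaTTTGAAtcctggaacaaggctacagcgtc
In PLK1 and CCNB2 the CHR letters began 29 bases before the start, and the nearest CCAAT before them 73 and 54 bases before it. CCNB2, the mitotic cyclin B2, fell from 682 to 138. A match of letters is a description of the window, and binding was not measured here.

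Genes of DNA replication fell less steeply. Of 36 listed genes, all above the threshold on level, 34 fell, against 11.7% of all genes (median log2 -1.61). POLA2, a primase-polymerase subunit at 114 and 61.4, and RPA2, a single-strand binding protein at 623 and 594, did not pass the test. MCM10 fell from 334 to 36.6, CDC45 from 314 to 38.8 and ORC1, an origin recognition subunit, from 205 to 27.0. Of enzymes that supply nucleotides, RRM2, a ribonucleotide reductase subunit, fell from 3176 to 502 and TK1, thymidine kinase, from 1921 to 308. All 6 subunits of the MCM2-7 helicase fell, by less than MCM10, and MCM6 for instance went from 1028 to 389 (log2 fold change -1.40 ± 0.18). The sliding clamp PCNA was at 2158 and 1383.

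In the same windows, the E2F letters TTTGGCGC or GGCGGGAA on either strand stood in 51.6% of the 31 replication genes with a window, in 4.88% of the mitotic genes and in 6.09% of tested protein-coding genes, while CHR letters stood in 6.45% of the replication genes. These shares too describe a list chosen from general knowledge, not the change on day 16. MCM6, picked after its letters had been seen, held TTTGGCGC beginning 152 and 90 bases before the start, in capitals here (chr2:135876444-135876633, minus strand).
MCM6: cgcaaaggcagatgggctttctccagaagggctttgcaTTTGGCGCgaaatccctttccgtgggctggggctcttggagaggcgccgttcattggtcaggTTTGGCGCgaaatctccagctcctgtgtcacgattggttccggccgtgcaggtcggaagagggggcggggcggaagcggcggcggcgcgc

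Homologous recombination and Fanconi anaemia repair genes went the same way. Of 20 genes 19 fell, against 11.7% of all genes (median log2 -1.91), and PALB2, at 280 and 233, did not pass the test. BRCA2, the tumour suppressor of this pathway, fell from 277 to 41.5, the helicase BLM from 132 to 17.8 and RAD54L from 150 to 21.8. E2F letters stood in 37.5% of the 16 windows of this list.

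Regulators of the cycle moved unevenly. Of 19 cyclins and cyclin-dependent kinases 12 fell and 2 rose, against 11.7% and 9.86% of all genes (median log2 -1.29). CCNA2, cyclin A2, fell from 1174 to 194, CCNE2, cyclin E2, from 140 to 19.7 and CDK1, the mitotic kinase, from 724 to 99.5 (log2 fold change -2.86 ± 0.99), while CCND2 was the member with the large rise. Of 19 E2F, RB and DREAM regulators above the threshold 9 fell and 1 rose, against the same shares. MYBL2 and FOXM1, the activators of mitotic genes, fell from 632 to 78.1 and from 1533 to 238, and RBL1 (p107) fell from 421 to 126, whereas RBL2 (p130), at 905 and 1180, did not pass the test (Benjamini-Hochberg adjusted p = 0.0676).

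Among the 7 CDK inhibitors, CDKN1A rose from 19901 to 32338, 1.62-fold, and CDKN2A from 547 to 940, 1.72-fold. CDKN2C (p18) fell from 465 to 84.1. CDKN2B (p15) was at 263 and 391 (Benjamini-Hochberg adjusted p = 0.0638), and CDKN1B (p27), CDKN1C (p57) and CDKN2D (p19), at 776 and 714, 15.3 and 33.3, and 200 and 163, did not pass either. Of 26 p53 targets above the threshold 8 rose and 1 fell, against 9.86% and 11.7% of all genes, and 17 did not pass the test (median log2 0.30). Besides CDKN1A, the risen genes included TP53INP1, an autophagy regulator, from 800 to 2301, the antiproliferative BTG2 from 608 to 1234, the proapoptotic BBC3 (PUMA) from 258 to 431 and the stress sensor SESN1 from 370 to 583. The stress hormone GDF15 was at 888 and 1172 (Benjamini-Hochberg adjusted p = 0.0740).

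Proteins of the lamina and of chromatin were measured next. LMNB1, which encodes lamin B1, the lamina protein that is lost in many senescent cells, fell from 1152 to 155 (log2 fold change -2.89 ± 0.25), and TMPO, an inner nuclear membrane protein, and LBR, the lamin B receptor, fell from 2073 to 593 and from 1338 to 561. HMGB2 and HMGA2, abundant proteins that shape chromatin, fell from 1577 to 418 and from 7930 to 2662. In all 11 of 17 genes of the lamina, nuclear envelope and HMG list fell, against 11.7% of all genes, and none rose (median log2 -0.54).

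Replication-dependent histone genes encode the histones made in S phase. Their mRNAs mostly lack a poly(A) tail, and 20 of 47 passed the threshold on level. Of those 20, 12 rose and none fell (median log2 1.47), and because the genes that passed had to be read in at least one group, nothing is drawn from this count. H1-2, a linker histone named after its values were seen, was at 477 and 1431. H4C8 rose from 190 to 607, H2BC8 from 73.9 to 285 and H3C10 from 28.9 to 152. How the libraries selected RNA is not given in the sources used here beyond the name mRNA-seq, and the part of polyadenylated and non-polyadenylated transcripts in these values was not tested.

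**Figure D3:**
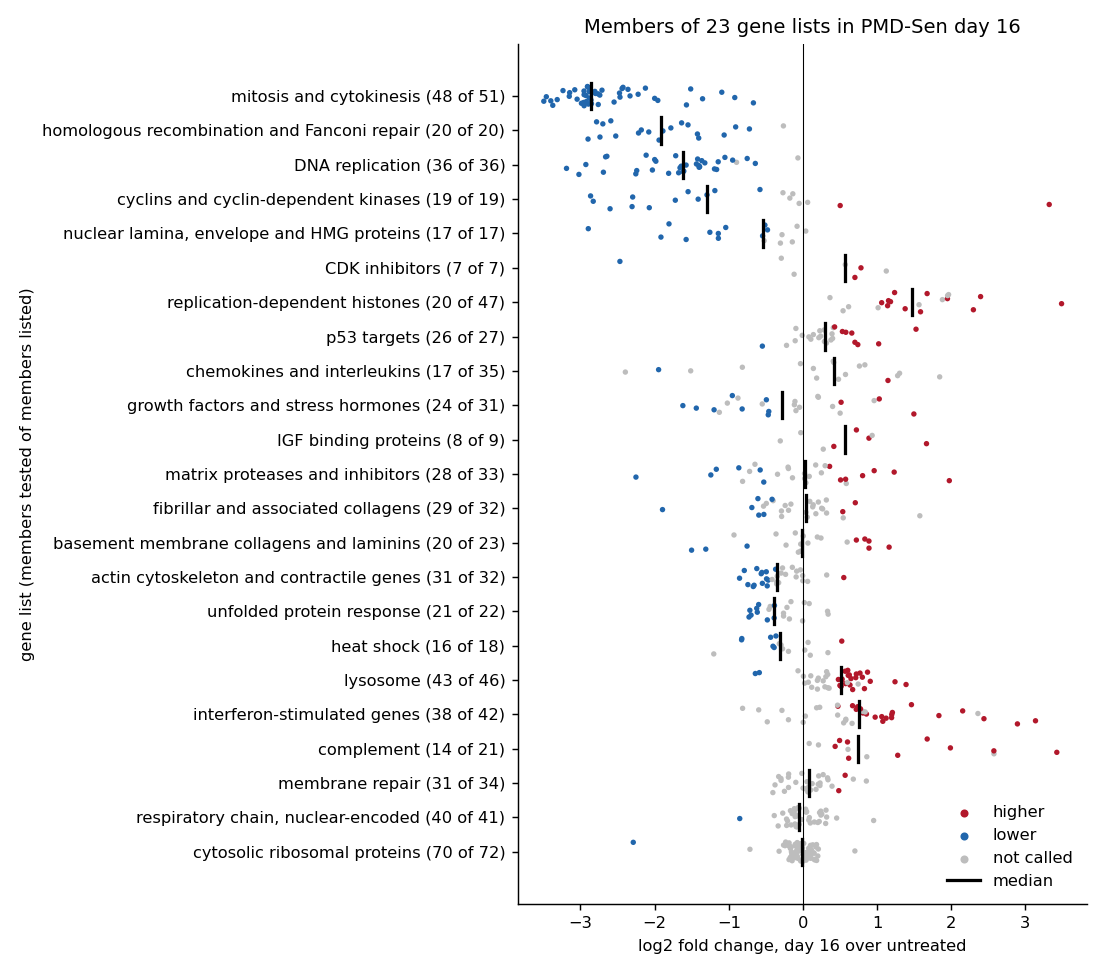
Log2 fold change of day 16 over untreated for the tested members of 23 gene lists, 1 point per gene (red, higher; blue, lower; grey, not called), with the list's median as a black bar and the number tested of the number listed in parentheses. All 48 mitotic genes lay below 0 with a median of -2.85, whereas interferon-stimulated genes, complement and lysosome had medians of 0.76, 0.74 and 0.52, and ribosomal proteins and membrane repair genes lay close to 0.

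Interferon-stimulated genes encode antiviral and signalling proteins. Of 42 listed genes 38 were above the threshold on level, 20 rose and none fell, against 9.86% of all genes that rose, and 18 did not pass the test (median log2 0.76). IFI6, a mitochondrial survival protein, rose from 560 to 3037 (log2 fold change 2.44 ± 0.62), and the membrane protein IFITM1, which blocks viral entry, from 235 to 837. IFI27, OAS2, an oligoadenylate synthetase, and BST2 (tetherin) rose from 5.91 to 51.9, from 16.6 to 73.9 and from 5.90 to 43.8, all at few reads. IFI27 and BST2, under 10 in untreated cells, passed the threshold on level through their day-16 reads. The count of rises is thus partly set by the filter and is a description only. ISG15, a ubiquitin-like modifier named after its values were seen, was at 822 and 1439, while IRF7, the amplifier of the response, did not pass the test at 6.56 and 33.7 (Benjamini-Hochberg adjusted p = 0.105). The white blood cell markers described above summed to 30.5 and 204, CD14 making up most of it, and their part in this result was not tested.

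The interferon response element, searched as GAAA, any 2 bases and GAAA again on either strand, stood in 68.8% of the 16 risen interferon-stimulated genes with a window, against 2.70% of tested protein-coding genes. It stood in 67.9% of the 28 windows of the whole list, not only of its risen members, and with windows for 73.7% of the 38 genes, under 80%, this check is void. Stretches of IFI27 (chr14:94110546-94110735, plus strand) and IFI6 (chr1:27672193-27672382, minus strand), picked after their letters had been seen, are printed with these letters in capitals (TTTCGGTTTC is a match on the other strand).
IFI27: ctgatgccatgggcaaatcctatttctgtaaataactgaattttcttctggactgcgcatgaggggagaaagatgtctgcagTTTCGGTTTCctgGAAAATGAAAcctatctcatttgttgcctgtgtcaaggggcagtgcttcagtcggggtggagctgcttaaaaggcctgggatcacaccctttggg
IFI6: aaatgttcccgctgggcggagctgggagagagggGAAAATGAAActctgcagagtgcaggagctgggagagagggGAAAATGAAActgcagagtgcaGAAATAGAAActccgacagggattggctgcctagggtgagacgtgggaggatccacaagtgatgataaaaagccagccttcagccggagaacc
IFI6 held 3 such stretches, the first 156 bases before the start, and IFI27 held 2.

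Of 21 listed complement genes 14 passed the threshold on level, of which 9 rose, against 9.86% of all genes, and none fell (median log2 0.74). C1S, the serine protease of the classical pathway, rose from 6774 to 16421, SERPING1, its inhibitor, from 244 to 780, and C7, a subunit of the membrane attack complex, from 53.7 to 213. The near-identical genes C4A and C4B, which share reads, summed to 24.6 in untreated cells and 187 on day 16 (7.63-fold). C4A alone, at 8.66 in untreated cells and 92.8 on day 16, passed the threshold on level through day 16. The count of complement rises is therefore also partly set by the filter. C3, at 65.4 and 389, had an SE of 1.05 and did not pass (Benjamini-Hochberg adjusted p = 0.0632). Only 9 of 19 genes of antigen presentation were above the threshold, and 2 of these rose, HLA-C from 82.1 to 189 and B2M, the shared light chain of class I molecules, from 4203 to 5587.

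Secreted factors known from senescent fibroblasts were measured next. Of 35 chemokines and interleukins 17 passed the threshold on level, of which 1 rose and 1 fell, against 9.86% and 11.7% of all genes, and 12 of the 17 were above 0 (median log2 0.42). CCL2, which draws in monocytes, rose from 725 to 1606 (log2 fold change 1.15 ± 0.25), and IL11, a cytokine of fibroblast activation, fell from 856 to 222 (-1.95 ± 0.19). The best-known members had large errors. IL6 was at 72.4 and 129 (Benjamini-Hochberg adjusted p = 0.204) and CXCL8 at 116 and 40.6 with an SE of 1.30 (0.471). A difference in either was not shown.

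Of 24 growth factors above the threshold 8 fell and 3 rose, against 11.7% and 9.86% of all genes, and 13 did not pass the test. HBEGF, a ligand of the epidermal growth factor receptor, fell from 449 to 146, FGF5 from 6509 to 2403 and FGF1 from 774 to 337. ANGPTL2, an angiopoietin-like secreted protein, rose from 2823 to 7959 and PDGFD, a platelet-derived growth factor, from 188 to 383. Of 8 IGF binding proteins 4 rose, against 9.86% of all genes, and none fell. The risen genes included IGFBP2 from 586 to 1860, IGFBP4 from 37020 to 68586 and IGFBP7 from 11048 to 18205.

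In the TGF-beta and BMP list, of 24 genes above the threshold 5 rose and 4 fell, against 9.86% and 11.7% of all genes. BMP4 rose from 896 to 4348 and BAMBI, a decoy receptor, from 449 to 938. ID1, a BMP target, fell from 1336 to 388. Outside this list, FST (follistatin), which binds activins, fell from 8781 to 2342, and INHBA, the activin A subunit, was at 2108 and 1441 (Benjamini-Hochberg adjusted p = 0.118). Of WNT ligands and inhibitors 13 of 27 passed the threshold, and 4 rose and 1 fell, against 9.86% and 11.7% of all genes. DKK1, a secreted WNT inhibitor, fell from 1916 to 492, whereas RSPO2, which strengthens WNT signals, rose from 9.27 to 53.1. RSPO2 passed the threshold on level through its day-16 reads, so the count of WNT rises is partly set by the filter.

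Among 28 proteases and inhibitors above the threshold 7 rose and 6 fell, against 9.86% and 11.7% of all genes. ADAMTS5, the aggrecanase, rose from 352 to 1380 and MMP24 from 51.5 to 121. PLAUR, the urokinase receptor, and MMP16 fell from 2126 to 946 and from 598 to 253. MMP3, stromelysin, was at 847 and 515 with an SE of 0.98 (Benjamini-Hochberg adjusted p = 0.693).

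Matrix genes changed member by member. Of 29 fibrillar and associated collagens above the threshold 2 rose and 6 fell, against 9.86% and 11.7% of all genes (median log2 0.04). COL1A1 and COL3A1 went opposite ways, and COL5A3 and COL6A3 fell from 249 to 67 and from 108195 to 67115. In basement membranes the paired chains COL4A1 and COL4A2 fell from 25841 to 9126 and from 39710 to 16016, while COL4A5 and COL4A6, which form another network, rose from 1832 to 3395 and from 436 to 975. LAMA4, a laminin chain, rose from 7081 to 13118. Of 31 elastic fibre, proteoglycan and matricellular genes above the threshold 8 rose and 6 fell, against the same shares of all genes. Among the rises, CCN5, at 1.39 in untreated cells and 29.1 on day 16, passed the threshold on level through day 16. HAS2, the main hyaluronan synthase of fibroblasts, fell from 511 to 68.3, and FMOD, a small proteoglycan that binds collagen, rose from 199 to 742.

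Of 31 genes of the actin cytoskeleton above the threshold 14 fell, against 11.7% of all genes, and 16 did not pass the test (median log2 -0.36). LMOD1, an actin nucleator of smooth muscle, rose from 2435 to 3566. ACTG1, a cytoplasmic actin, fell from 139742 to 88529, ACTG2 from 15226 to 9100 and ACTA2, the smooth muscle actin of myofibroblasts, from 7210 to 4531. TPM1, a tropomyosin, and LIMA1, a filament bundler, fell from 18829 to 10882 and from 5589 to 3090. Of 19 YAP and TEAD targets 4 fell and 1 rose, against 11.7% and 9.86% of all genes. CCN1 went from 12596 to 8829 and AXL from 16268 to 9545. Of 8 smooth muscle and pericyte markers 3 fell and 2 rose, against the same shares, with MYH11 under the threshold on level.

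Of 43 lysosomal genes above the threshold 23 rose, against 9.86% of all genes, 2 fell and 18 did not pass the test (median log2 0.52). PSAP, the precursor of the saposins, rose from 20472 to 37427 (log2 fold change 0.87 ± 0.13), CTSF, a cathepsin, from 308 to 807, GAA, acid alpha-glucosidase, from 1657 to 3108, and ASAH1, acid ceramidase, from 1670 to 2966. The pair that fell was NPC1, the cholesterol exporter, at 931 and 596, and PPT1, a thioesterase, at 1270 and 844.

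Of 21 genes of the unfolded protein response above the threshold 9 fell, against 11.7% of all genes, none rose and 12 did not pass the test (median log2 -0.38). HSP90B1, the HSP90 of the endoplasmic reticulum, fell from 30524 to 18585, the chaperone partner DNAJB11 from 1384 to 852 and the collagen chaperone SERPINH1 from 20060 to 13169. Of 16 heat shock genes 6 fell, against the same share, and 9 did not pass. The mitochondrial chaperonin HSPD1 fell from 8672 to 4887, and HSPB8, a small heat shock protein, rose from 660 to 949.

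Of 32 NRF2 targets and metallothioneins above the threshold 8 rose and 2 fell, against 9.86% and 11.7% of all genes. The risen genes included FTL, ferritin light chain, from 48780 to 91585, and FTH1, its heavy chain, from 17992 to 29779. MT1E, a metallothionein, fell from 984 to 355. Among 32 genes of cholesterol and fatty acid synthesis 5 fell and 2 rose, against the same shares. Of the rises, FDFT1, at 8.80 in untreated cells and 119 on day 16, passed the threshold on level through day 16. FASN, fatty acid synthase, fell from 8043 to 4982 and STARD4, a sterol carrier, from 990 to 428. Of 40 nuclear-encoded respiratory chain genes CYCS, cytochrome c, fell from 3455 to 1914, and the other 39 did not pass. One of 13 genes of the mitochondrial genome rose, MT-ND6 from 15010 to 18880, and 69 of 70 cytosolic ribosomal protein genes did not pass (median log2 -0.02).

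Genes of the response that closes plasma membrane wounds were examined because SDS opens the membrane. Of 31 above the threshold 2 rose and none fell, a median log2 of 0.08, against 9.86% of all genes tested that rose. ANXA4, an annexin that binds wounded membrane, rose from 1411 to 1972, and SMPD1, acid sphingomyelinase, from 3759 to 5575. CHMP4B, the ESCRT-III subunit that polymerises at wounds, was at 2937 and 3201 (log2 fold change 0.12 ± 0.14, Benjamini-Hochberg adjusted p = 0.598). Of 32 genes of calcium handling 7 rose and 3 fell, against 9.86% and 11.7% of all genes. CACNA1C, a voltage-gated channel, rose from 6.13 to 66.8 at few reads, ITPR1, a release channel of the endoplasmic reticulum, from 189 to 557, and PIEZO2, a mechanosensitive channel, from 614 to 1306. CACNA1C passed the threshold on level through its day-16 reads, so the count of calcium handling rises is partly set by the filter. ITPR3, another release channel, fell from 1018 to 524 and ATP2B1, the calcium pump of the plasma membrane, from 2683 to 1235.

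The day-16 values are set beside those of earlier days after the same SDS exposure, each against the same untreated libraries. Medians of mitotic genes on the log2 scale were -2.25 on day 0, at the end of the exposure, -0.43 on day 1, -1.94 on day 4, -1.66 on day 8 and -2.85 on day 16. Interferon-stimulated genes had medians of -0.78 on day 0, -0.22 on day 4, 0.11 on day 8 and 0.76 on day 16. Chemokines and interleukins were lowest on day 2, at -1.33, and were at -0.31 on day 8 and 0.42 on day 16. All these medians were over members that passed the threshold in the day-16 comparison, some of them through their day-16 level. Of the 38 interferon-stimulated genes 35 also passed it on day 8, and of the 17 chemokines and interleukins 15. This choice of members can raise day 16 above the earlier days. For replication-dependent histones the medians, 0.62 on day 0 and 1.47 on day 16, were over the 20 of 47 genes that passed the threshold, partly through their day-16 level, and nothing is read from them. Single genes differed in their course. CCND2 was at a log2 fold change of -0.04 on day 1, 2.18 on day 4, 2.64 on day 8 and 3.32 on day 16. CDKN1A was at 1.04 on day 4, 0.85 on day 8 and 0.70 on day 16, and GDF15 at 4.10 on day 0, 0.47 on day 8 and 0.40 on day 16. IL6 was at 2.79 on day 0, -1.63 on day 2 and 0.83 on day 16. The medians describe the members chosen on day 16, and no trend was tested.

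**Figure D4:**
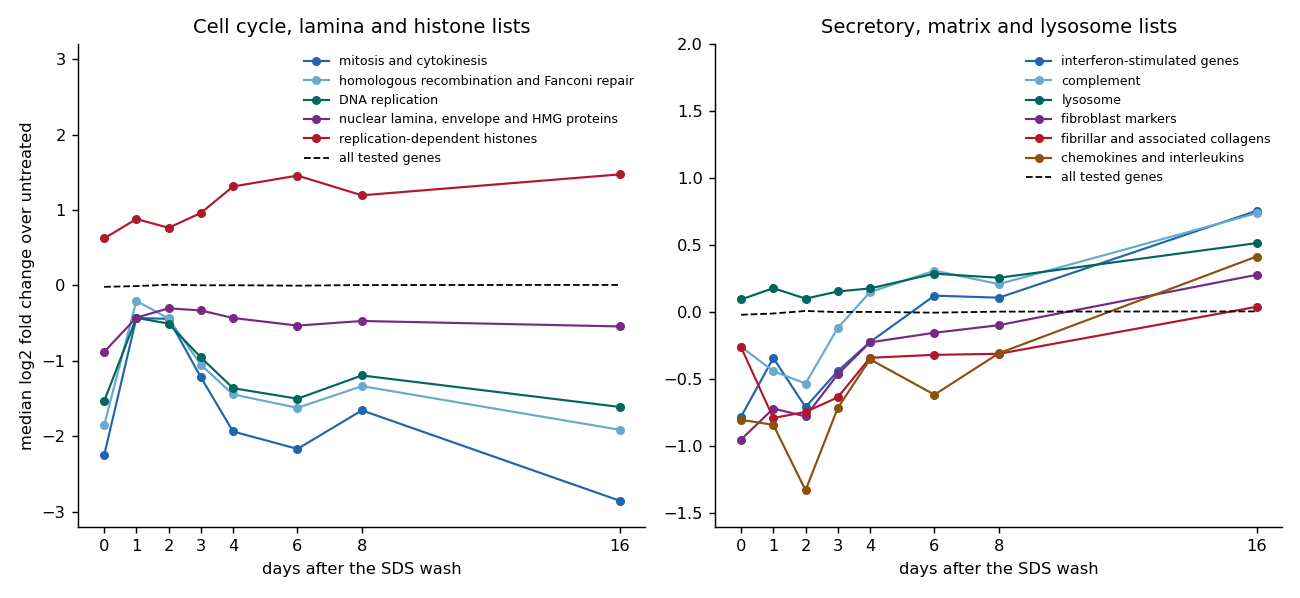
Median log2 fold change over untreated on each day after the SDS wash, for 5 cell cycle, lamina and histone lists (left) and 6 interferon, complement, lysosome, fibroblast, collagen and cytokine lists (right), with all tested genes dashed. Points are medians over the members that passed the threshold on level in the day-16 comparison and carry no error, and on day 16 mitotic genes were at -2.85 and interferon-stimulated genes at 0.76.

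Against day 8 of PMD-Sen, 19 of 14568 genes differed, 9 higher on day 16 (0.0618%) and 10 lower (0.0686%), which together were 0.13% of the genes, and 735 had an unadjusted p under 0.05. The difference of both log2 fold changes was divided by the root of their summed squared SEs. Error from the untreated libraries, which cancels in a difference, was thereby still included, and with an estimate of that part removed 513 genes passed. Of mitotic genes 4 of 48 were lower, with a median difference of -1.12. CENPE was at -3.49 on day 16 and -1.77 on day 8 (difference -1.72 ± 0.34), CDC20 at -2.96 and -1.65, PLK1 at -2.71 and -1.51, and SMC4, a condensin subunit, at -2.44 and -1.30. FOXM1 and TK1 were also lower, as was HMGA2, at -1.58 and -0.45 (difference -1.12 ± 0.24). GOLGA4, a Golgi tether, NEXN, an actin filament protein, and CCDC88A (girdin) completed the 10.

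Of the genes higher on day 16 than on day 8, RARRES2, which encodes the chemoattractant chemerin, was at a log2 fold change of 2.38 on day 16 and -0.88 on day 8 (difference 3.26 ± 0.63). ITGA8, an integrin of mesenchymal cells, was at 0.33 and -1.39, AKR1C1 at 2.26 and 0.64, AKR1C2 at 2.96 and 1.32, CYTL1 at 2.73 and 1.18, ANGPTL2 at 1.50 and 0.52, SCUBE3, a secreted growth factor coreceptor, at 1.18 and 0.28, and SLC6A6, the taurine transporter, at 1.43 and 0.62. AKR1C1, AKR1C2 and AKR1C3 are close paralogs and may share reads, and their sum was 650 in untreated cells and 3537 on day 16 (5.44-fold). The last of the 9 was U2AF1L5, whose reads are uncertain as described. None of 35 interferon-stimulated genes tested differed from day 8, against 0.13% of all genes, so the absence of a call says little. Their median difference was 0.58. Above 0 were 32 of the 35 differences, but these genes were read in the same libraries and are not independent. IFITM1 was at 1.83 and 0.30 and IFI6 at 2.44 and 0.86, the latter with an SE of 0.81 on day 8.

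Against DDR-Sen on day 16, 29 of 14622 genes differed (0.198%), 26 higher in PMD-Sen (0.178%) and 3 lower (0.0205%), and 422 had an unadjusted p under 0.05. With the untreated part of the error removed 217 genes passed. Mitotic genes accounted for 11 of the 26, and a higher value here is a smaller fall. The median difference over the 48 mitotic genes was 1.23. CDC20 was at -2.96 in PMD-Sen and -5.58 in DDR-Sen (difference 2.63 ± 0.35), KIF18B, a kinesin, at -2.93 and -5.28, UBE2C, which ubiquitinates cyclins, at -2.90 and -5.10, and PLK1 at -2.71 and -4.33. LMNB1 followed, at -2.89 and -4.74 (difference 1.84 ± 0.33), with MYBL2 at -3.02 and -5.05, FOXM1 at -2.69 and -4.07, TK1 at -2.64 and -4.16, and CDKN2C at -2.47 and -4.09.

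Outside the cell cycle, CRYBG1, a crystallin-fold protein, was at -1.22 in PMD-Sen and -3.32 in DDR-Sen, NPTX1, neuronal pentraxin, differed by 1.32 ± 0.25, CLDN11, a claudin, at -0.43 and -1.69, ITPR3 at -0.96 and -1.99, SERPINF1, an inhibitor of vessel growth, at 0.55 and -0.67, and OLFML3, a secreted olfactomedin-like protein, at -0.47 and -1.67. The 3 lower genes were CCND2, at 3.32 and 4.42 (difference -1.10 ± 0.22), TGFB2, a TGF-beta ligand, at 0.65 and 1.63, and NOMO3, which has near-identical copies. NOMO1, NOMO2 and NOMO3 summed to 2081 in untreated cells and 2129 on day 16 of PMD-Sen. No gene of the interferon, complement, lysosome or histone lists differed between PMD-Sen and DDR-Sen on day 16. Their median differences were 0.17, -0.04, -0.01 and -0.22. With 0.198% of all genes called in this comparison, the absence of a call is not a result about these lists.

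Against RS, 102 of 14741 genes differed (0.692%), 46 higher in PMD-Sen (0.312%) and 56 lower (0.38%), and 917 had an unadjusted p under 0.05. Removal of the untreated part of the error gave 749 genes. Of mitotic genes 8 of 48 were higher, with a median difference of 1.42, among them KIF18B at -2.93 in PMD-Sen and -5.81 in RS, TTK, a checkpoint kinase, at -2.90 and -5.37, and PLK1 at -2.71 and -4.64. MYBL2 was at -3.02 and -5.88 (difference 2.87 ± 0.49), LMNB1 at -2.89 and -5.16, MCM10 at -3.19 and -5.21 and TK1 at -2.64 and -4.55. CRYBG1 was at -1.22 and -4.66 (difference 3.44 ± 0.45). TIMP3, an inhibitor of metalloproteinases bound to the matrix, was at 0.17 in PMD-Sen and -0.69 in RS, SERPINF1 at 0.55 and -1.43, and BDKRB2, the bradykinin receptor, at 1.14 and -0.07.

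Of the genes lower in PMD-Sen than in RS, CCND2 was at 3.32 and 5.25 (difference -1.94 ± 0.27) and CDKN2B at 0.57 and 2.32 (difference -1.75 ± 0.46). AMIGO2, an adhesion protein, was at -1.98 and 0.59, PRUNE2 at 1.28 and 3.76, HMCN1, a matrix protein, at 0.05 and 2.36, PLXDC2 at 1.29 and 3.54 and DSP, desmoplakin, at 0.70 and 2.85. LUM, lumican, was at 0.81 and 2.40, INHBA at -0.55 and 1.05, FST at -1.91 and -0.60, and GDF6, a BMP-family ligand named after its values were seen, was at 2.28 in RS with a difference of -1.70. RS cells also differ from the other groups in their number of passages, so that passage and senescence inducer cannot be told apart.

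**Figure D5:**
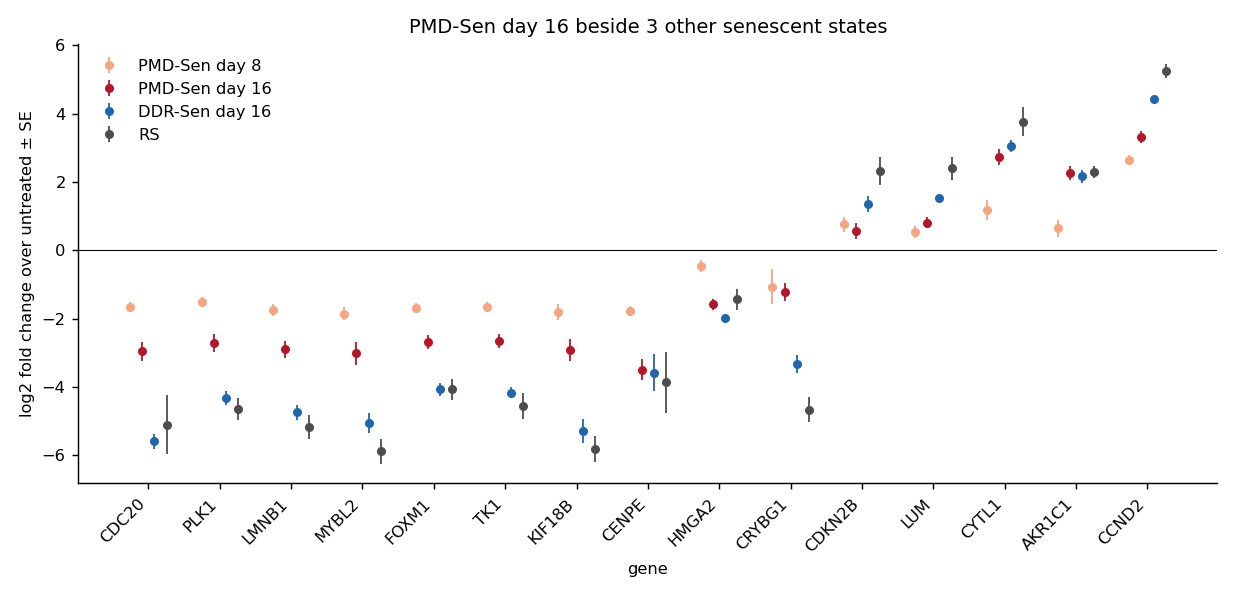
Log2 fold change over untreated with its SE for 15 genes in PMD-Sen day 8 (orange), PMD-Sen day 16 (red), DDR-Sen day 16 (blue) and RS (grey), all against the same 2 untreated libraries. For CDC20, PLK1 and LMNB1 the day-16 value of PMD-Sen lay between day 8 and the values of DDR-Sen and RS, and for CCND2 the 4 states stood at 2.64, 3.32, 4.42 and 5.25.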

How the data were processed

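RNA-seq of WI-38 cells was analysed, with 2 libraries in each of 26 groups, as labelled, and 11 comparison tables were used. According to the submitters' processing notes the reads were handled with Trim Galore, HISAT2, HTSeq, featureCounts and DESeq2 on GRCh38 (hg38), without versions, and whether reads were counted by strand is not given in the sources used here. The authors deposited, for each group, a comparison with the same untreated libraries in the form DESeq2 writes. Per the file headers, each row holds a mean signal (the mean of the size-factor normalised counts over the 4 libraries), a deposited log2 fold change with its standard error, a deposited Wald statistic (a score), and deposited p-values, raw and adjusted by the authors. The files of both day-16 libraries held the same table, and no count of a single library was used. These are the authors' own comparisons, used because the set of genes is defined on that table. The p-values measure only the spread between 2 libraries a group, which the methods call independent samples without saying that they were separate cultures.

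Here the mean and the fold change were solved for the level of each group. The authors' DESeq2 Wald p-values, two-sided, were adjusted by Benjamini-Hochberg over genes with a mean of at least 10, and called under 0.05. Differences between senescent states were tested two-sided as normal deviates, adjusted over genes at 10 or more in both tables. One row that names no gene, 0.00141% of the summed mean, was left out. Library sizes were inferred from genes with 1 read in 1 library. RefSeq promoter windows, with those on chr8 left out, matched 82.4% of tested protein-coding genes. Genes on chr8 thus count as without a window. Where a gene had several windows, the first was searched. The scripts (Python 3.11.15, SciPy 1.17.1, pandas 2.3.3, matplotlib 3.10.9 and NumPy 2.4.6) were tested on simulated data.

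Genes and lists were chosen with earlier results of these data known. Named were the 12 largest rises and falls among genes that passed the test, averaged 100 or more and had an SE of at most 0.5, the 5 largest called changes of each list, all CDK inhibitors and fibroblast markers, 8 known senescence or repair genes, and the 6 largest differences in each direction from each other state. A subset is given, some items are not reported here, and genes outside this rule (MKI67, BUB3, MCM6, PCNA, POLA2, RPA2, PALB2, H1-2, ISG15, IRF7, C3, NPC1, PPT1, FST, INHBA, GDF6 and marker genes) were chosen after their values were seen. Alternatives were other filters on the mean, a fold limit, centring on the median, scaling by library totals, leaving out large SEs, the adjustment as deposited, and an error without the untreated part.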

Additional observations from a re-analysis of the deposited data

Results flagged for a closer look

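A test of the difference between the log2 fold changes of PMD-Sen day 16 and RS, each against the same untreated libraries, picked out 4 genes that passed the test in both states with opposite signs. ANGPT1, an angiopoietin that stabilises vessels, was at -0.47 ± 0.16 in PMD-Sen and 0.84 ± 0.30 in RS (log2 fold change ± SE), a difference of -1.31. COLGALT2, which adds galactose to collagen, was at -0.68 ± 0.24 and 0.59 ± 0.23, a difference of -1.28. RASL12, a small RAS-like GTPase, was at 1.44 ± 0.54 and -2.01 ± 0.54, a difference of 3.45. FLII, a gelsolin-family actin regulator, was at 1.89 ± 0.67 and -2.55 ± 0.28, a difference of 4.44. The levels of FLII on day 16 and in untreated cells were 1664 and 450, and those of RASL12 148 and 54.3. Values of single libraries, which would show whether 1 library set these differences, were not used here.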

How the results depend on the processing

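With a change of at least 1 on the log2 scale required, 1117 genes were called against untreated cells, 560 higher and 557 lower. Without a filter on level, 10 genes differed from day 8 and 67 from RS. With the untreated part of the error removed, an estimate, 513 genes differed from day 8, 217 from DDR-Sen and 749 from RS, so that the counts between states depend on how the shared control is treated. By direction, the counts moved with the same settings, except that RS lower without a filter stayed within 1.5 times, and genes lower than in DDR-Sen went from 3 to 5 under scaling by library totals. The remaining counts of calls stayed within 1.5 times. The higher share of the calls against untreated cells was 45.8%, and between 42.7% and 50.1% under the alternatives. A set of 315 genes, wider than the naming rule and with genes added after their values were seen, kept direction and call under scaling by library totals. No result reversed. This scaling shifted the log2 fold changes by only -0.006, and the smallest called change was 0.33 in size. Centring moved them by the median of 0.006. Neither could move many calls or directions, so their outcome was nearly fixed in advance and is no support. With members at a mean of at least 100 alone, the medians of CDK inhibitors and of smooth muscle markers moved to 0.23 and -0.33. No paired analysis was possible because no value of a single library was used, and leaving out each replicate could not be run for the same reason. Depth limits genes with few reads, 75 of 1363 genes with an SE above 0.80 passing the test. RPS18 and RPS25, which every cell uses, had almost no reads in the table, and FDFT1, PCK2 and PSMC4, also in general use, had low untreated levels, so that large changes of such genes are uncertain.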

Other observations

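The lists in this section were assembled after the values had been seen, and their counts describe what was picked. Targets of the FOXO transcription factors, which act when insulin and growth factor signals are low, rose in 13 of 23 cases and fell in none, against 9.86% of all genes that rose. TXNIP, the inhibitor of thioredoxin and of glucose uptake, rose from 3553 in untreated cells to 16253 on day 16, PIK3IP1, an inhibitor of PI3 kinase, from 790 to 3278, SESN3, a stress-induced inhibitor of mTORC1 signalling, from 341 to 1152 and CCNG2, an atypical cyclin, from 613 to 1307. TXNIP was at a log2 fold change of 1.23 on day 8 and 2.19 on day 16 of PMD-Sen and at 1.90 in DDR-Sen and 1.49 in RS. Among members that did not pass, IRS2, an insulin receptor substrate, was at 1056 and 1164 and CDKN1B at 776 and 714.

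Enzymes of steroid, retinoid and alcohol metabolism, in a list that also held the amine oxidase MAOA, rose in 12 of 20 cases, against 9.86% of all genes. None fell. The paralogs AKR1C1, AKR1C2 and AKR1C3, which may share reads, were among these rises. HSD17B2, which inactivates sex steroids, rose from 249 to 1120, HSD17B6 from 41.7 to 230, MAOA, monoamine oxidase A, from 136 to 605, and RDH10 and DHRS3, which interconvert retinol and retinal, from 2931 to 5266 and from 287 to 637. SLC40A1 (ferroportin), the iron exporter, rose from 246 to 1231 and SOD3, extracellular superoxide dismutase, from 367 to 959. In their list of antioxidant, iron and lipid carrier genes 7 of 10 rose, against 9.86% of all genes. Among the 7, APOD, at 1.35 in untreated cells and 25.7 on day 16, passed the threshold on level through day 16. Of 11 MHC class I-like stress ligands and TNF-family genes MICA and TNFSF18 rose and ULBP3 fell, from 342 to 182, against 9.86% and 11.7% of all genes. ULBP1, at 140 and 205, and ULBP2, at 259 and 200, did not pass the test.

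Among lists not described above, 7 of 27 immediate early and AP-1 genes fell and 3 rose. Beside this count and those that follow, 9.86% of all genes rose and 11.7% fell. FOSL1, an AP-1 subunit, went from 4763 to 1928 and KLF2 from 501 to 153. In the NF-kB list 2 of 16 rose, VCAM1, an adhesion molecule for leukocytes, from 694 to 4965 and TRAF1 from 266 to 745, and BIRC3 fell from 307 to 109. VCAM1 was at a log2 fold change of -6.24 on day 1, -0.08 on day 4 and 2.84 on day 16. Of 16 genes of prostaglandin synthesis 6 rose and 1 fell, 3 of the rises being the paralogs AKR1C1, AKR1C2 and AKR1C3, which may share reads, and PTGES, prostaglandin E synthase, going from 85.9 to 174. The integrated stress response list had 6 rises and 4 falls among 27, the amino acid transporters SLC7A1 and SLC7A5 falling from 2308 to 908 and from 2794 to 1254. Of 26 glycolysis and hypoxia genes 2 rose and 2 fell, NDRG1 from 3141 to 6480 and ENO1 from 36281 to 24346. Of 13 intracellular genes of GPVI signalling, a collagen receptor pathway of platelets, 1 rose and 1 fell, and FYN, a kinase of the SRC family, went from 565 to 957.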
